A study of Homo sapiens with 8 samples.

Results

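Among 15192 strong autosomal ATAC-seq peaks of HEK293 cells, 951 were higher in every library taken after 1 h of sorbitol than in every vehicle library, by a mean ratio of 1.25 to under 2, and these 951 rising strong peaks are described here. They were chosen from counts scaled to library size (CPM, the count of a peak divided by the total of its library's column, times 1000000). The rule asked for a mean vehicle CPM of at least 15, for all 4 sorbitol values above all 4 vehicle values, and for a ratio of mean sorbitol to mean vehicle CPM of at least 1.25 and under 2. The 951 peaks were 6.26% of the strong autosomal peaks and 0.734% of all 129536 peaks in the deposited table. Because the same contrast chose them, their rise is given as a description and carries no test.

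The libraries came from HEK293, a human embryonic kidney line, whose genotype is given as eGFP-YAP, a fluorescent fusion of the Hippo pathway coactivator YAP, although the sample titles name the line alone. All groups were starved of serum for 1 h, per the series design. The treated group then received 0.2 M sorbitol for 1 h and the control group vehicle, with 4 libraries each. The names of the count columns mark the controls 0 h and the treated libraries 1 h. If 0 h is a time of collection, time and sorbitol cannot be told apart. No label says that replicates came from separate cultures, or whether the line is 1 clone, so the spread between libraries may be technical. Of 7 genes used as a check of the line, VIM had the strongest peak at a gene end in vehicle, at 87.8 CPM, and KRT18 (22.2 CPM), NEFL (31.1 CPM), NEFM (6.16 CPM) and the kidney gene LHX1 (14.6 CPM) also had peaks there. The kidney genes PAX2 and PAX8 had no peak within 1 kb of either gene end. The blood gene PTPRC reached 1.16 CPM, the muscle gene MYOD1 22.9 CPM, and CD3E, ALB, GFAP and CDH5 had no peak there.

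In ATAC-seq a transposase cuts DNA that is not wrapped in nucleosomes, so a peak marks an open regulatory element such as a promoter or an enhancer. Sorbitol outside the cell draws water out. Cells answer this hyperosmotic stress by MAP kinase signalling, by the tonicity factor NFAT5 and by taking up small organic osmolytes through transporters such as SLC5A3 and SLC6A6, and the nucleus shrinks and its chromatin condenses.

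The promoters of 6 genes whose starts lie under rising peaks show what such elements look like. They were chosen as the largest rises at named gene starts (RHOBTB1, CAV2), as genes of stress signalling, YAP response and osmolyte uptake (DUSP1, CCN2, SLC5A3), and as a peak from the chromosome with fewest rising peaks per strong peak (JUND on chromosome 19). Each is the 250 bases before the RefSeq start (GRCh38.p14), 5′ to 3′ on the gene's strand, and each lies wholly inside the rising peak. Capitals mark any match, on either strand, to 12 motifs: AP-1 (TGANTCA), CRE (TGACGTCA), TEAD (CATTCC), the NFAT5 tonicity core (TGGAAA), CTCF, GC box (GGGCGG), NF-Y (CCAAT), NRF1, ETS (CCGGAAG), E-box (CACGTG), YY1 (AAGATGGCG) and heat shock factor (TTCNNGAA). Adjoining or overlapping matches run together in the capitals. The windows are, in order, chr10:61000998-61001247 (minus strand), chr7:116499488-116499737 (plus), chr5:172771196-172771445 (minus), chr6:131951373-131951622 (minus), chr21:34073328-34073577 (plus) and chr19:18281623-18281872 (minus).
RHOBTB1: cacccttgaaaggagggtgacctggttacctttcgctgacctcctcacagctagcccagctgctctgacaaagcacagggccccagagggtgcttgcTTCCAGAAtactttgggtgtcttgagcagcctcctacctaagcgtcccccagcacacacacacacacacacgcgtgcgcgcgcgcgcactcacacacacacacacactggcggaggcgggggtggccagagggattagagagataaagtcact
CAV2: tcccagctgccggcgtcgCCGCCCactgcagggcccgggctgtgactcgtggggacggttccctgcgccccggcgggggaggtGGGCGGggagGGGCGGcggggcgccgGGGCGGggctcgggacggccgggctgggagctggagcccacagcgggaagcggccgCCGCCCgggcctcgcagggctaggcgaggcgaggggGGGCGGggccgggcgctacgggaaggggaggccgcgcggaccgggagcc
DUSP1: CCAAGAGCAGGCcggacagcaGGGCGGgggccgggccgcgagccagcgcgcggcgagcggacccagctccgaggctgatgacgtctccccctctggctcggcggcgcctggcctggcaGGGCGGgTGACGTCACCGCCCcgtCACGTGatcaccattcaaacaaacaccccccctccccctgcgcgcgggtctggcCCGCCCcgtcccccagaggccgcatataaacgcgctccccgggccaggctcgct
CCN2: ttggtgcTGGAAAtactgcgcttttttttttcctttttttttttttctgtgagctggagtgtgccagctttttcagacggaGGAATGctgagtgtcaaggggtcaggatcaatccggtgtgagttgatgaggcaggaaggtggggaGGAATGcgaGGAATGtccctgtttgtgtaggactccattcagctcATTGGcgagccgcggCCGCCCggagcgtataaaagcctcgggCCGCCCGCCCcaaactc
SLC5A3: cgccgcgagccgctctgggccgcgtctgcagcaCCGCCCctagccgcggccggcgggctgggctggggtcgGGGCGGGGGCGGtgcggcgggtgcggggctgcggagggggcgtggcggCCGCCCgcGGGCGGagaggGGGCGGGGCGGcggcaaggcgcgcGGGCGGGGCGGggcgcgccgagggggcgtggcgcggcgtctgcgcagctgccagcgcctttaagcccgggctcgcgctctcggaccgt
JUND: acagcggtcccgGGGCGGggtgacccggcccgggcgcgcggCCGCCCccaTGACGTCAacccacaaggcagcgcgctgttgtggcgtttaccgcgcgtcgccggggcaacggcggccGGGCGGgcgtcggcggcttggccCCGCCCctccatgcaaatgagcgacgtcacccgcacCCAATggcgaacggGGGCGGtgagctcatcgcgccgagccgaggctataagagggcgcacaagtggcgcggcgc

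These promoters differ in makeup. SLC5A3 holds 9 GC boxes in 84.8% G and C, and CAV2 holds 6 in 83.2%. DUSP1 has 4 GC boxes, 1 CRE beside a GC box, 1 E-box and 1 CTCF match. JUND has 5 GC boxes and also 1 CRE. CCN2, at 53.2% G and C, has 3 GC boxes and 3 TEAD motifs. TEAD motifs are the sites through which YAP acts on this gene in textbook accounts. RHOBTB1 holds no GC box, 1 heat shock factor match and a run of CA and CG repeats. A match to these letters is a description and not a binding site.

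The peak at the start of RHOBTB1, an atypical small GTPase (chr10:61000841-61002005), had the highest ratio of all rising strong peaks. Its vehicle values were 16.3, 17.02, 20.4 and 19.4 CPM and its sorbitol values 32.6, 35.9, 37.6 and 39.8 CPM. The means were 18.3 ± 1.93 and 36.5 ± 3.04 CPM (SD, n = 4 libraries each), a ratio of 1.9987 that falls just under the upper limit. The lowest sorbitol library stood at 1.60 times the highest vehicle library.
CAV2 encodes caveolin-2, a coat protein of the membrane pits that flatten when a cell is stretched. Its start peak (chr7:116499163-116500395) had vehicle values of 20.2, 17.9, 25.01 and 22.02 CPM and sorbitol values of 40.01, 41.7, 38.6 and 45.1 CPM, a ratio of 1.94. The groups did not overlap in either peak, as the rule required.

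**Figure D1:**
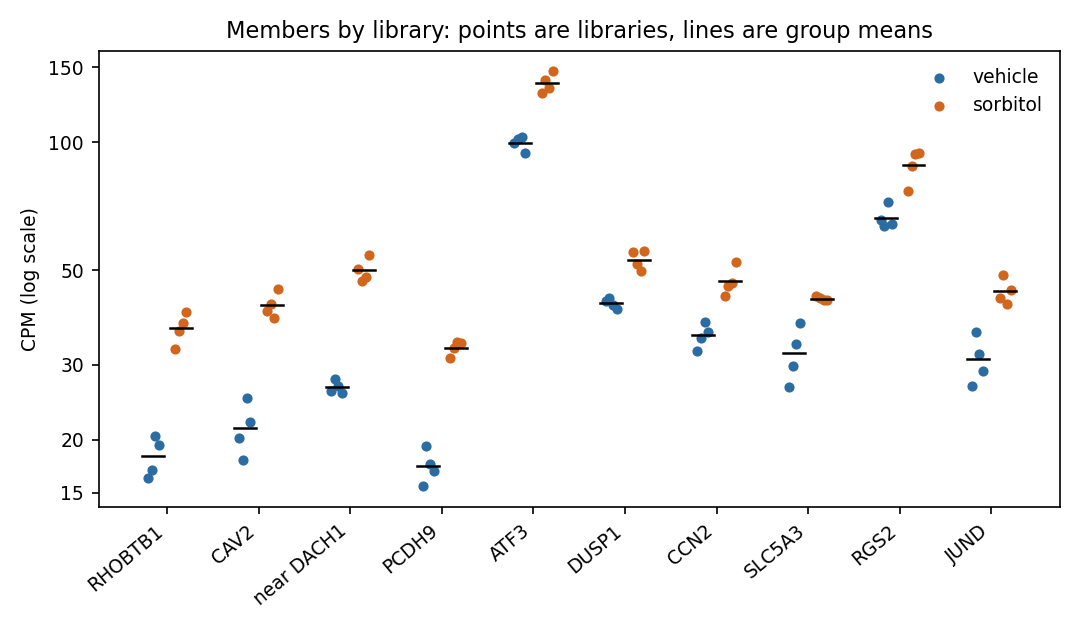
CPM (log axis) of 10 rising strong peaks in the 4 vehicle and 4 sorbitol libraries; points are libraries and black lines group means. RHOBTB1 and CAV2 show the widest steps, with ratios of 1.9987 and 1.94, and DUSP1 the narrowest, with 1.27; no sorbitol point reaches down to a vehicle point of the same peak, by the rule.

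Most other strong peaks went the opposite way, which sets the background for these 951. By edgeR's quasi-likelihood test over all peaks, 7.30% of strong autosomal peaks were higher and 45.9% lower after sorbitol at an adjusted p under 0.05, against 16.0% higher and 13.1% lower among all tested peaks. Higher peaks were thus 54.9% of all calls, and 79.7% when the scaling came from peaks at gene boundaries. The share of strong peaks called higher also depends on the scaling: it was 12.5% with library totals, 20.5% with a loess offset and 21.5% with the gene-boundary scaling, under which the median log2 fold change of strong peaks moved from −0.20 to −0.02. Of the 951, 940 were called higher with TMM factors over all peaks, which the choice of members fixes to a large part. Their median log2 fold change was 0.36 (range 0.24 to 0.92, median SE 0.09), beside −0.22 for the other strong peaks and 0.01 for all tested peaks. Among strong peaks 11.3% had all sorbitol values above all vehicle values and 34.8% the reverse. Of the 1714 that were wholly above, 757 had ratios under 1.25 and 6 had ratios of 2 or more.

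The rises were modest. The median ratio of the 951 was 1.36 (quartiles 1.30 and 1.45), and 167 of them (17.6%) reached 1.5. The count depends on the scaling: with TMM factors in place of column totals 600 peaks met the rule, 570 of them among the 951. Their vehicle level was low for strong peaks, with a median of 22.2 CPM against 30.1 CPM for the others. In 39.5% it lay under 20 CPM, against 21.6% of the others, and only 55 reached 50 CPM. Peak width, which the rule did not use, had a median of 1143 bp against 1193 bp.

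**Figure D2:**
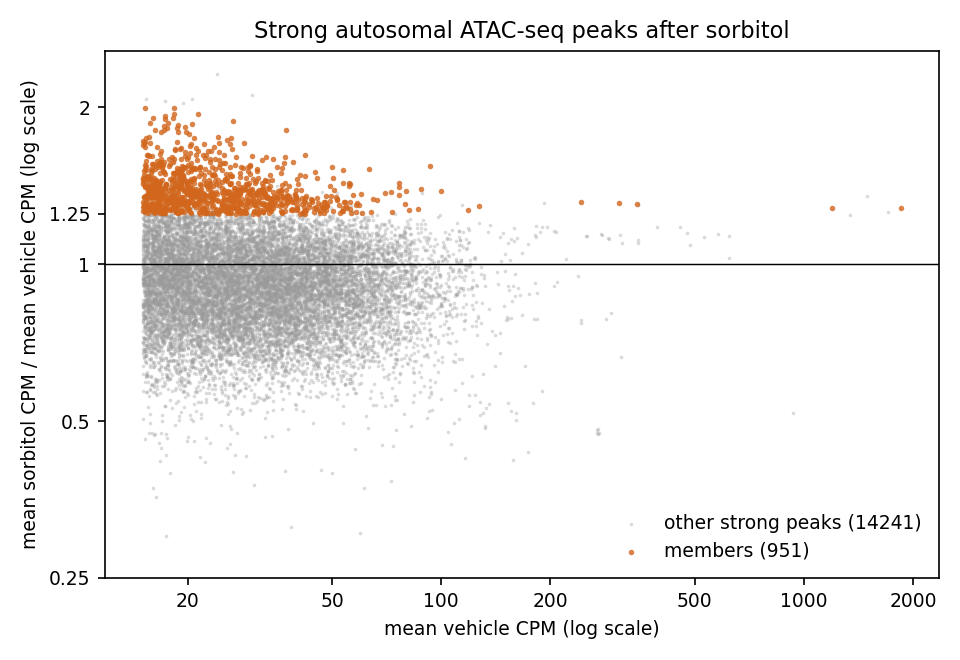
Mean vehicle CPM (log axis) against the ratio of mean sorbitol to mean vehicle CPM (log axis) for 15192 strong autosomal peaks; orange points are the 951 rising peaks and grey points the 14241 others. The rising peaks fill the band from 1.25 to 2 and thin out above 50 CPM, and 69.9% of the grey points lie below the line at 1.

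The limits of the rule divide peaks of nearly equal values. RHOBTB1 at 1.9987 was inside and the start of PDK4, a kinase that shuts off pyruvate dehydrogenase, was outside at 2.0381. The start peak of DEPDC7 was inside at a ratio of 1.2505 and a peak at ZNF488 outside at 1.2499. A peak near RPL31P4 was inside at a mean vehicle level of 15.005 CPM and the start of SLC16A12 outside at 14.995 CPM. The mitochondrial-like gene MTRNR2L8 was outside because 1 sorbitol library, at 429.33 CPM, fell below 1 vehicle library at 429.38 CPM.

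The libraries held 14757015 to 19831471 counts in vehicle and 11522266 to 14355727 in sorbitol. The 951 peaks took 2.77 to 2.94% of the counts of a vehicle library and 3.85 to 4.13% of a sorbitol library. The lowest count of any of these peaks in any library was 165. In bulk libraries more cells with an open site and more cuts per cell cannot be told apart, and counting error does not cover duplicated PCR products. The choice of peaks was most often limited by vehicle 3, the highest vehicle library in 46.2% of them, and by sorbitol 1, the lowest sorbitol library in 41.6%. Sorbitol 4 was the lowest in 7.26%, and by replicate number the median ratio was 1.34, 1.36, 1.30 and 1.49.

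Replicate 4 stood apart from the other 3 in a second way. With replicates 1 to 3 alone the rule chose 1046 peaks, of which 769 were among the 951 (80.9% of the 951). In 228 of the 1046 vehicle 4 was higher than sorbitol 4, so the full rule keeps all of these out of the 951. In these 228 the median CPM was 35.5, 32.2, 29.2 and 49.3 in vehicle 1 to 4 and 49.7, 43.0, 49.9 and 28.8 in sorbitol 1 to 4. Vehicle 4 thus lay at the level of the other sorbitol libraries and sorbitol 4 at that of the other vehicle libraries. Of the 228, 191 (83.8%) lay between genes, and 145 lay in 6 blocks, which hold no rising peak by the full rule. The 2 fullest blocks were chr4:49091824-49712005 with 41 of these peaks and chr1:143184616-143267219 with 40. Whether the blocks hold repeats was not examined. The reversal in replicate 4 at these places was not tested for its source. It bears on the counts that follow, since with replicates 1 to 3 the share of chosen peaks between genes was 31.5% in place of 16.7%.

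**Figure D3:**
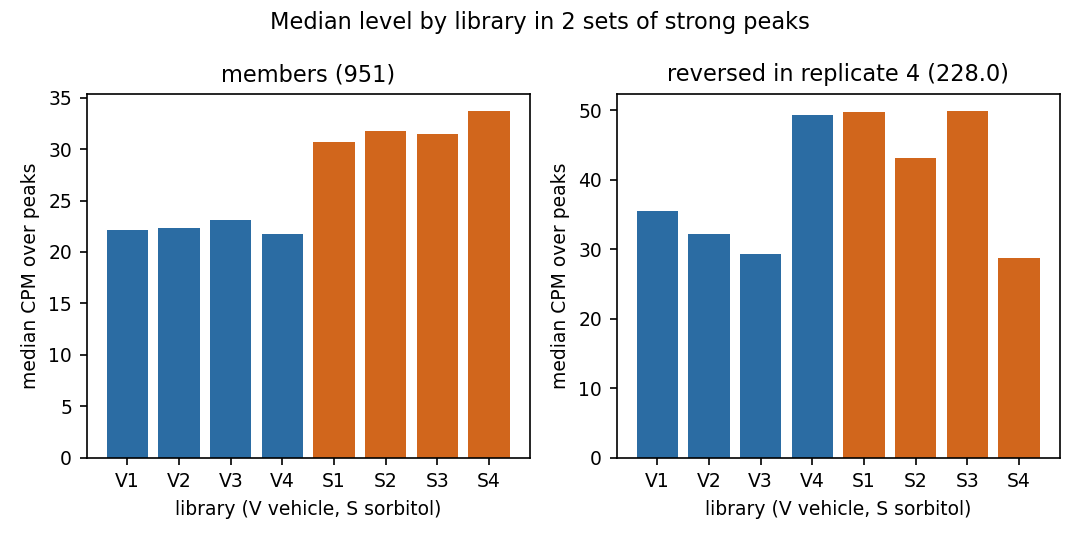
Median CPM in each library (V, vehicle; S, sorbitol; numbers are replicates) over the 951 rising peaks (left) and over the 228 strong peaks that replicates 1 to 3 would add and that replicate 4 reverses (right). On the left every sorbitol bar, from 30.7 CPM, stands above every vehicle bar, up to 23.1 CPM, as follows from the rule. On the right V4 stands at 49.3 CPM and S4 at 28.8 CPM.

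The rise was also read in libraries that took no part in a choice, though they are not known to be independent of those that did. In the library names, replicates 1 and 2 share a first number, and so do replicates 3 and 4. When replicate number 1, 2 or 3 was left out of the rule, 97.0%, 98.6% and 96.0% of the peaks chosen from the other libraries were higher in sorbitol in the number left out, with median ratios of 1.29, 1.33 and 1.25. For replicate 4 the share was 78.2% and the median ratio 1.42. With TMM factors in place of column totals the lowest of the 4 shares was 68.4%. Over all strong peaks the shares were 31.8%, 36.2%, 29.1% and 46.0%.

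Of the 951 peaks, 375 (39.4%) lay within 1 kb of a listed gene start, 109 (11.5%) within 1 kb of another gene end, 308 (32.4%) inside a gene and 159 (16.7%) between genes. The other strong peaks lay at 61.8%, 16.8%, 12.0% and 9.42% in these 4 places. The rising peaks were thus 15.3% of strong peaks inside genes (exact 95% binomial interval 13.7 to 16.9%) and 10.6% of those between genes, but 4.09% of those at gene starts (3.69 to 4.51%). By edgeR, 4.92% of strong peaks at gene starts, 5.60% at other gene ends, 16.3% inside genes and 12.6% between genes were called higher, members or not. These intervals cover counting only, since neighbouring peaks are not independent. Place also went with vehicle level: other strong peaks had medians of 34.3 CPM at gene starts, 20.5 CPM inside genes and 21.4 CPM between genes. Rising peaks were more frequent at low levels, and the places were not compared at equal level. Of the 248 rising peaks with at least 30 CPM in vehicle, 75.0% lay within 1 kb of a gene end. For other strong peaks this share is not given at that level, and over all their levels it was 78.6%. Peaks inside genes also had larger ratios, with 24.7% at 1.5 or more against 13.3% at gene starts. The list of starts holds none on chromosome 8, so peaks at starts there count as other gene ends.

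Inside genes, the rising peaks sat in long ones. The median host gene was 180 kb, against 102 kb for other strong peaks inside genes, and 20.5% of them sat in genes of at least 500 kb, against 9.88%. Between genes the median distance to the nearest gene was 12.3 kb, and 5 peaks were more than 100 kb from any gene. At gene starts, 323 of 375 nearest starts were protein-coding and 52 those of long noncoding RNAs. Start peaks shared by at least 2 genes made up 18.9%, against 30.6% among the other strong start peaks.

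PCDH9, which encodes a protocadherin that joins neighbouring cells, carried most rising peaks of any gene, with 8 of its 12 strong peaks. The gene spans 928 kb of chromosome 13, and the 8 peaks all lay inside it, with ratios from 1.278 to 1.90. The strongest (chr13:66834871-66835770) went from 76.6 ± 6.21 to 104 ± 3.23 CPM (SD, n = 4). The one with the largest ratio (chr13:67008091-67009639) had vehicle values of 15.6, 19.3, 17.5 and 16.9 CPM and sorbitol values of 31.1, 32.9, 34.0 and 33.7 CPM. Vehicle and sorbitol values were each within a narrow band. Their separation follows from the rule and from picking the peak for its ratio.

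DACH1, a transcription factor gene of eye, limb and kidney development, held 5 of its 7 strong peaks among the rising ones, all inside the gene. A further rising peak (chr13:71873331-71874235) lay between genes, 6126 bp from DACH1. Its vehicle values were 26.1, 27.8, 26.7 and 25.8 CPM and its sorbitol values 50.4, 47.2, 48.2 and 54.3 CPM, a ratio of 1.88. The rule required the groups not to overlap, and the lowest sorbitol library stood at 1.70 times the highest vehicle library there. Among the 5 inside, the ratio ran from 1.34 to 1.75.

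Other genes with several rising peaks were NKAIN2, whose product binds a sodium pump subunit (4 of 5 strong peaks), SEMA3C, a secreted guidance factor (4 of 5), and TLE4, a corepressor (4 of 6). The 4 SEMA3C peaks had ratios from 1.43 to 1.91 and the 4 NKAIN2 peaks from 1.27 to 1.57. Sets of 3 lay in or at genes that included PTPN14, KLF12, PDE4D, ROBO2, MAP2, ASXL3, FNIP2, FAM120B, NEMP2 and TMEM242. ROBO2, a receptor for axon guidance, spans 1743 kb and TMEM242 34.5 kb, so not all of them are long.

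Joined over gaps of up to 50 kb, the 951 peaks fell into 864 loci, of which 791 held 1 peak, 59 held 2 and 14 held 3. Most loci thus held 1 peak, but no like count for other strong peaks is given here. With gaps of up to 100 kb there were 802 loci, 6 of them with 4 or more peaks, and the fullest held 8. The 3 peaks in TMEM242, at chr6:157310394-157314415 from first to last, lay within 5 kb. The largest of them had vehicle values of 90.1, 73.9, 87.5 and 122 CPM and sorbitol values of 152, 141, 152 and 132 CPM. Vehicle 4 was the highest vehicle library and sorbitol 4 the lowest sorbitol library, so the gap was narrow in replicate 4. At SEMA4B, a membrane semaphorin, a start peak (chr15:90184044-90185514) went from 25.6 ± 0.802 to 44.3 ± 2.34 CPM (SD, n = 4).

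Peaks around the rising ones also leaned upward. Within 50 kb lay 7139 other peaks with a median log2 fold change of 0.22, and 27.8% of them were called higher by edgeR, with 5.45% lower. For the 59423 peaks that had only other strong peaks within 50 kb, the median was −0.09, and 10.96% were called higher and 21.3% lower. Within 10 kb the medians were 0.22 and −0.16. The sets compared differed in strength. Within 10 kb, 1454 of 1652 neighbours of rising peaks lay below the strength limit of the rule, against 13941 of 27984 others. Among peaks below that limit the medians were 0.28 and −0.06 within 10 kb, and 0.26 and −0.02 within 50 kb. Surroundings differed as well. The median number of protein-coding genes centred within 500 kb on each side was 6 for rising and 10 for other strong peaks. Neighbours were not compared at equal surroundings. The neighbours of rising peaks share the libraries and the contrast that chose the members, so the difference is a description.

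Chromosome 13 had the highest share of its strong peaks among the rising ones, 15.5% (58 of 374, exact 95% interval 12.0 to 19.6%). Chromosomes 4 (11.2%), 5 (10.1%) and 6 (9.80%) followed. Their intervals overlap one another, and those of chromosomes 4 and 5 overlap that of chromosome 13. At the low end stood chromosome 19 with 0.423% (3 of 709, interval 0.0873 to 1.23%), chromosome 22 with 0.867%, chromosome 16 with 0.880% and chromosome 17 with 1.17%. By number alone chromosome 1 led with 113 peaks, 11.9% of the 951, and it also held 12.4% of the strong peaks. Across the 22 autosomes the share ran against protein-coding gene density per Mb (Pearson r −0.59, Spearman −0.68), as a description over chromosomes that share the same libraries.

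**Figure D4:**
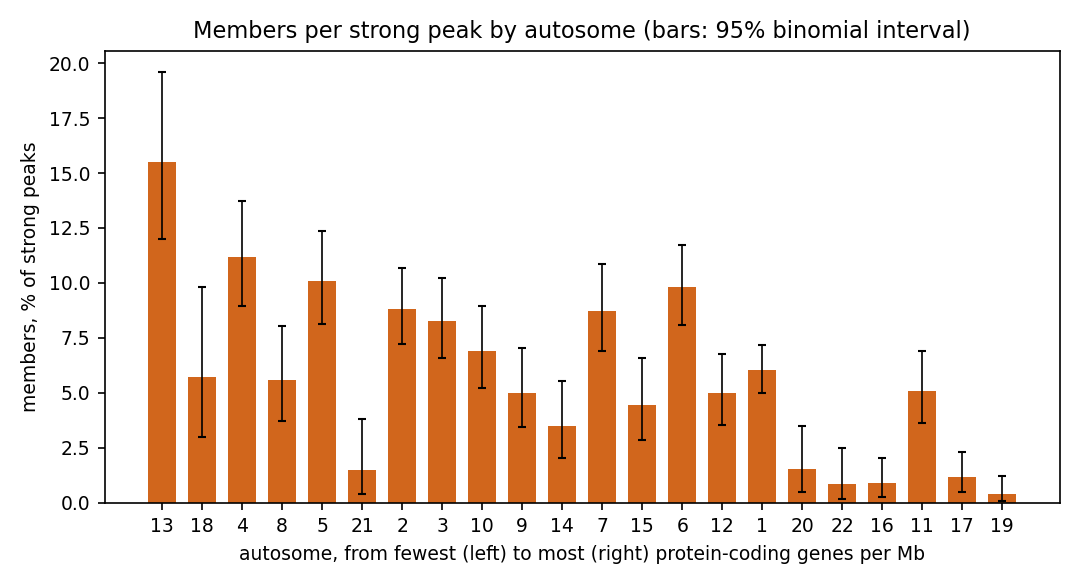
Rising peaks as a percentage of strong peaks on each autosome, ordered from fewest to most protein-coding genes per Mb; lines are exact 95% binomial intervals that cover counting only. Chromosome 13, at the left, reaches 15.5% and chromosome 19, at the right, 0.423%, while chromosome 21 breaks the order at 1.51%.

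On chromosome 13 the rising peaks were mostly away from starts, 45 of the 58 inside or between genes, and these were 33.6% of its 134 strong peaks of that kind. At its gene starts the share was 5.26% (11 of 209), close to 5.25% on chromosome 15 and under 7.13% on chromosome 4. Its rising start peaks included CCNA1, a cyclin, picked after its values were seen, with vehicle values of 20.8, 17.3, 17.8 and 19.04 CPM and sorbitol values of 27.4, 32.6, 32.3 and 36.2 CPM. Besides PCDH9 and DACH1, the gene KLF12, a zinc finger factor, held 3 peaks with ratios from 1.40 to 1.68.

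The few rising peaks of chromosomes 19, 22 and 16, the 3 autosomes with the lowest shares, are named here although their values had been seen. The 3 on chromosome 19 lay at the starts of MKNK2, a kinase that MAP kinases switch on, and of JUND, and near CCDC9. The 3 on chromosome 22 lay at the start of TIMP3, an inhibitor of matrix proteases, inside RASD2 and at an end of LOC124905111. The 5 on chromosome 16 were all at gene starts, of NDRG4, ZNF821, FA2H, KLHL36 and CRISPLD2. JUND, an AP-1 subunit, had vehicle values of 26.7, 35.8, 31.8 and 29.1 CPM and sorbitol values of 43.0, 48.8, 41.7 and 44.9 CPM. TIMP3 had 24.2, 16.6, 17.1 and 20.1 CPM in vehicle and 30.1, 33.0, 27.3 and 29.0 CPM in sorbitol. The ratio was 1.45 for JUND, 1.29 for MKNK2 and 1.253 for the peak near CCDC9. On chromosome 22 it was 1.53 for TIMP3, 1.49 for LOC124905111 and 1.31 for RASD2, so these 6 peaks lay on both sides of the median of 1.36 of the 951.

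The surroundings of each peak, counted over all autosomes together, gave an order in the same direction. With 0 to 2 protein-coding genes centred within 500 kb on each side, 16.97% of strong peaks were rising ones (222 of 1308), and 26.8% with replicates 1 to 3 alone. The share was 10.1% with 3 to 5 genes, 6.84% with 6 to 10, 3.77% with 11 to 20, 1.48% with 21 to 40 and 0.614% with 41 or more. Inside genes it fell from 34.1% to 1.69% over these classes, and at gene starts from 8.33% to 0.452%. The median number of genes around was 6 for the 951 and 10 for the other strong peaks. Without chromosomes 13 and 19 the first and last classes had 14.9% and 0.765%. Over the same classes the median log2 fold change of all strong peaks went from 0.05 to −0.49, so strong peaks as a whole were ordered the same way.

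**Figure D5:**
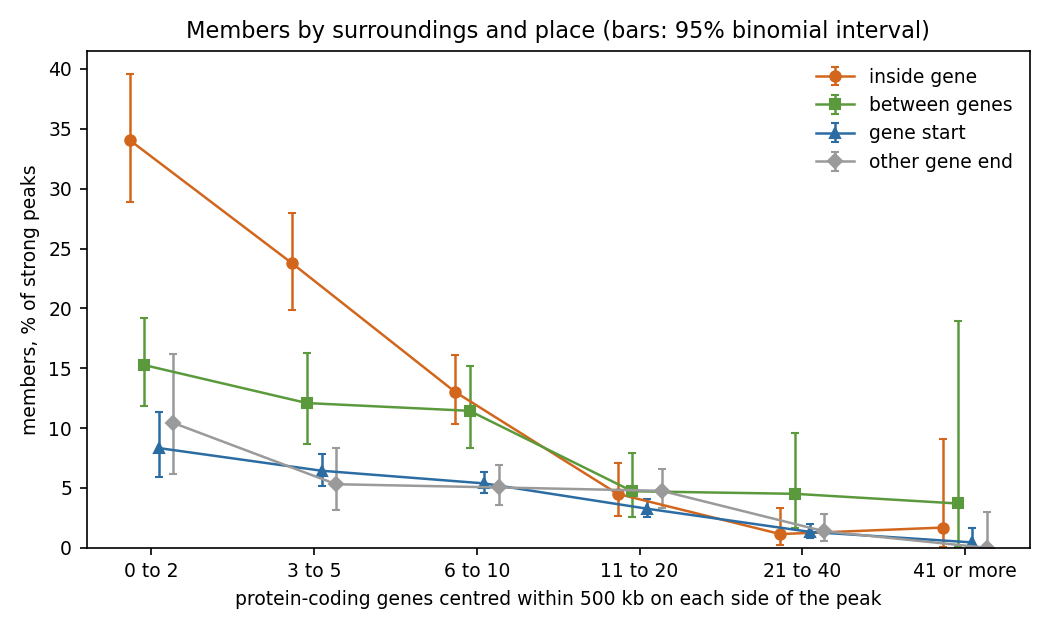
Rising peaks as a percentage of strong peaks by the number of protein-coding genes centred within 500 kb on each side, drawn apart for 4 places; lines are exact 95% binomial intervals. Inside genes the share is 34.1% with 0 to 2 genes around and 1.15% with 21 to 40; at gene starts it goes from 8.33% to 0.452%.

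Promoter sequence was not used by the rule. Of the RefSeq promoter windows (250 bases before to 50 after a start), 351 belonged to rising start peaks, with a median G and C content of 71.0% (quartiles 62.7 and 76.3%). The 8429 windows of other strong start peaks had 67.0%, and all 33725 autosomal windows 58.7%. The rising share was 5.16% under 55% G and C, 2.58% from 55 to 65%, 2.40% from 65 to 70%, 4.72% from 70 to 75% and 6.80% at 75% or more. It was thus higher at both ends than in the middle. Between the lowest and the highest of these classes the order depended on the surroundings. The shares were 9.68% and 8.74% with 0 to 5 genes around, 4.88% and 7.42% with 6 to 20, and 0.535% (1 of 187, interval 0.0135 to 2.94%) and 3.25% with over 20.

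The share of windows with a motif lay apart between the sets for some factors and close for others. The ETS motif was in 8.26% of the 351 windows (exact 95% interval 5.60 to 11.7%), against 19.8% of the other strong windows and 10.3% of all autosomal windows. The NRF1 motif was in 0.570% against 2.70%, and YY1 in 1.71% against 3.89%, each near or under the share in all windows (1.23% and 1.74%). AP-1 was in 5.70% (3.51 to 8.66%) against 3.43%, with 7.67% in all windows. TEAD was in 9.40% against 9.74%, the NFAT5 core in 12.5% against 13.6%, CRE in 3.42% against 3.45% and NF-Y in 37.0% against 37.0%. The GC box was in 80.3% against 76.5%, CTCF in 2.56% against 2.98%, the E-box in 9.12% against 9.98% and the heat shock factor motif in 4.27% against 5.58%. Base composition differs between these sets, and its part in the motif shares was not tested.

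Named gene lists are given by their counts, beside the 6.26% of all strong peaks that were rising ones. The 11 MAP kinase phosphatase genes, which switch MAP kinases off, had 10 strong peaks, of which 4 were rising, at DUSP1, DUSP5 and, with 2, DUSP6. The median log2 fold change of the 10 was 0.15, against −0.20 for all strong peaks, and edgeR called 4 higher and 1 lower. DUSP1 (chr5:172770480-172771616) had vehicle values of 42.2, 43.1, 41.5 and 40.5 CPM and sorbitol values of 55.1, 51.7, 49.8 and 55.4 CPM. Its vehicle libraries were within 3 CPM of each other. The lowest sorbitol library was over 6 CPM above them, and the rule required it to lie above. At DUSP5 (chr10:110497312-110498588, also the start of its divergent transcript) the means were 40.2 ± 5.09 and 57.4 ± 6.31 CPM (SD, n = 4), and the 2 DUSP6 peaks had ratios of 1.26 each.

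Of 26 strong peaks at 19 osmotic stress genes, 4 were rising, and edgeR called 5 higher and 7 lower. The start peak of SLC5A3, the sodium and myo-inositol cotransporter, is shared with MRPS6, a mitochondrial ribosome gene (chr21:34072964-34074775). Its vehicle values were 26.6, 29.8, 33.6 and 37.7 CPM and its sorbitol values 43.5, 42.9, 42.6 and 42.6 CPM, a ratio of 1.34. Vehicle libraries were spread and sorbitol libraries tight. SLC6A6, the taurine transporter, had a rising peak inside the gene (chr3:14439074-14440400) that went from 27.8 ± 3.19 to 38.6 ± 4.33 CPM. Inside LRRC8D, a subunit of the volume-regulated anion channel (chr1:89889808-89890933), the level went from 20.04 ± 1.23 to 31.1 ± 0.903 CPM (SD, n = 4). The kinase SGK1, known to respond to cell shrinkage, had a rising peak inside the gene with a ratio of 1.41.

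Of 29 strong peaks at 23 immediate early and AP-1 genes, 5 were rising and edgeR called 6 higher and 10 lower. The strongest was inside ATF3, a stress-induced factor (chr1:212607925-212609828), with vehicle values of 99.6, 102, 103 and 94.4 CPM and sorbitol values of 131, 140, 134 and 147 CPM. All libraries of a group lay close together there. The start of RGS2, a brake on G protein signalling, went from 66.4 ± 3.98 to 88.2 ± 8.09 CPM. The others were JUND, a peak inside NR4A1 with a ratio of 1.40 and a peak at an end of NR4A2 with 1.29, both genes of orphan nuclear receptors.

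Of 35 strong peaks at 29 YAP target and Hippo genes, 4 were rising, and edgeR called 5 higher and 9 lower. The start of CCN2, a secreted matrix protein and a standard YAP target (chr6:131950393-131951653), had vehicle values of 32.3, 34.6, 37.9 and 35.8 CPM and sorbitol values of 43.6, 46.0, 46.6 and 52.2 CPM. The other 3 were inside PTPN14, a phosphatase that holds YAP back, with ratios of 1.33, 1.36 and 1.55. Among 16 kidney developmental factors 6 of 25 strong peaks were rising, 5 of them in DACH1 and 1 in EYA1.

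Other lists held none. No strong peak was rising among 20 at heat shock genes, 14 at p53 and growth arrest genes, 13 at CTCF and cohesin genes or 17 at actin and SRF target genes. By symbol, 0 of 37 strong peaks at HOX genes, 0 of 14 at SOX genes and 0 of 41 at histone genes were rising. Zinc finger genes named ZNF had 6 of 318 (1.89%), and edgeR called 244 of these 318 lower. Ribosomal protein genes had 6 of 84, SLC transporter genes 15 of 266, KLF genes 3 of 23 and FOX genes 2 of 47. Protocadherin genes had 10 of 22, 8 of them in PCDH9 and 1 each at PCDH17 and PCDH18.

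The highest levels among the 951 lay at nuclear copies of mitochondrial DNA. On chromosome 1 a peak over MTND1P23 and MTND2P28 (chr1:629138-630068) had vehicle values of 2218, 1989, 1611 and 1590 CPM and sorbitol values of 2489, 2248, 2421 and 2334 CPM. Vehicle libraries differed more among themselves there than sorbitol libraries did, and the lowest sorbitol library was 1.01 times the highest vehicle library. Of 18 strong peaks at such copies, 12 were rising, with ratios over all 18 of 1.25 to 1.45. They held 14.2% of the counts of the 951 in vehicle. The copies are near-identical to the mitochondrial genome, so the source of their counts is uncertain. The 12 were picked by gene symbol, and 939 rising peaks lay outside such named copies.

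Among these 939 the highest level was at chr13:109424008-109424468, 19703 bp from LOC105370359, with 310 ± 49.7 in vehicle and 406 ± 28.4 CPM in sorbitol (SD, n = 4). In all 8 libraries this peak stood at 0.874 to 0.922 times the peak of the copy MTND2P28 (chr1:630247-630517). No gene symbol of a copy is listed at it, its sequence was not examined, and it is not placed apart from the copies here. The next was at the start of UTRN, the dystrophin relative utrophin (chr6:144284633-144287447). The UTRN peak had vehicle values of 117, 115, 125 and 116 CPM and sorbitol values of 135, 154, 154 and 157 CPM. Sorbitol 1 stood below the other sorbitol libraries and, as the rule required, above all vehicle libraries.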

How the data were processed

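Omni-ATAC-seq of 50000 cells per sample was sequenced as pairs of 75 bp reads, per the labels' protocols. The authors deposited 1 table of raw counts per peak for 8 libraries, with no normalization. The submitters' processing notes name Trim Galore 0.6.10, BWA 0.7.17, SAMtools 1.22, Picard, MACS2 2.2.9.1 and the build hg38 (GRCh38), with no role or order. Whether peaks were called per library or on pooled libraries is not given in the sources used here. Starts were read as 0-based and are printed 1-based.

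CPM used column totals. The member rule and the gene lists were chosen with earlier results of these data known. Fold changes came from edgeR 4.0.16 in R 4.3.3 (filterByExpr, TMM, quasi-likelihood test, treatment as the sole term, Benjamini-Hochberg over 129487 peaks, threshold 0.05), tested on simulated data. Genes and promoters came from the RefSeq tables of GRCh38.p14. A place is the first that applies of gene start, other gene end (both within 1 kb), inside a gene and between genes. A list's peaks lie at or inside its genes.

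Peaks named were the 10 with the largest ratio, the 10 with the highest vehicle level, the 10 with the widest gap between groups, 3 on each side of each threshold, all in a gene list, and those in loci of 3. The text gives a share of them. CCNA1 and the peaks of chromosomes 16, 19 and 22 were named after their values were seen. Alternatives were other scalings, thresholds, distances, filters, designs, DESeq2 1.42.0, and leaving out each library.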

Additional observations from a re-analysis of the deposited data

Results flagged for a closer look

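In 3 named rising peaks, 1 library of a group lay far from the other 3 relative to the range of its group. Among 118 groups of 4 libraries examined in this way, chance would flag about 5.9.

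In the peak inside LOC105371671 (chr1:195590318-195591320) the 4 sorbitol values were nearly equal, with sorbitol 3 lowest at 33.639 CPM and the other 3 from 33.761 to 33.784 CPM. In the peak at DUSP5 and the start of its divergent transcript DUSP5-DT, vehicle 1 had 32.646 CPM while the other 3 vehicle libraries had 42.155 to 43.369 CPM. In the start peak of UTRN and LOC124901418, sorbitol 1 had 134.52 CPM and the other 3 sorbitol libraries 154.18 to 157.36 CPM. In each of the 3 peaks all sorbitol values lay above all vehicle values, as the rule required.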

How the results depend on the processing

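The count of 951 depends on the scaling and the thresholds. TMM factors in place of column totals gave 600 peaks (570 of them among the 951), in 558 loci, with 44.5% within 1 kb of a gene end. DESeq2 size factors gave 550, 514 loci and 44.2%. Totals over strong peaks gave 1600, 1426 loci, 59.0% and 14.3% between genes. A strength of at least 10 CPM gave 1714, 1455 loci, 39.1% and 20.4%, and one of at least 30 CPM gave 248, 232 loci, 75.0% and 9.27%, with 15.7% on chromosome 1. A ratio of at least 1.5 gave 167, 161 loci, 36.5% at gene ends and 9.58% on chromosome 1. Replicates 1 to 3 gave 41.7% at gene ends, 31.5% between genes and 14.3% on chromosome 1. A gene end distance of 5 kb gave 62.9% and 12.5% between genes, and protein-coding genes alone 42.5% and 29.0%.

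Leaving out 1 library gave 876 to 1091 rising peaks, 48.1 to 54.4% of them at gene ends. With TMM factors and DESeq2 size factors the lowest share rising in a replicate left out was 68.4% and 65.8%, in place of 78.2%. With 0 to 2 genes around, the rising share of strong peaks was above that with over 20 genes under every setting run, for example 12.2% against 0.645% with TMM factors and 26.8% against 1.36% with replicates 1 to 3.

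In the fits over all peaks, strong peaks called higher went from 7.30% to 12.5% with library totals, 20.5% with a loess offset, 21.5% with TMM factors from gene-boundary peaks and 12.97% at a mean of at least 50 counts. The gene-boundary factors moved the median of all peaks to 0.19, with 34031 called higher and 8672 lower, and 50 counts gave 21406 calls, 10312 higher and 11094 lower. Higher calls were 79.7% of all calls with the gene-boundary factors and 67.4% with library totals, against 54.9%. The neighbours' median of 0.22 became 0.30 with library totals, 0.39 with the gene-boundary factors and 0.26 over neighbours below 15 CPM. All 951 fold changes stayed above 0 in every fit, which their choice from the same counts fixes to a large part. Between 755 (without sorbitol 4) and 951 were called higher, which is likewise a description.

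With the replicate block 898 of the 951 were called higher, in place of 940. Same-numbered libraries did not deviate together over all peaks (correlations from −0.132 to 0.00656). The median vehicle level of autosomal peaks was 2.85 CPM, where counting error can hide a pairing. Whether the numbers pair the samples is therefore not settled. The motif search in the middle of each peak was not run, since no genome was used here. Leaving out the mitochondrial copies, the other settings for surroundings and the sets without chromosomes 13 and 19 were chosen after seeing the data.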
